A study of Mus musculus with 47 samples.

Results

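The transcription factors that set and keep the microglial lineage were followed in mouse cortex, with 8 genes taken by name out of the 54281 genes of the TPM table and the 54532 genes of the count table. All 8 were found in both tables. TPM is a transcript level scaled to library size and corrected for transcript length, which can therefore be compared between genes. The group of 6 genes treated here as myeloid-restricted held *Spi1*, *Irf8*, *Irf5*, *Sall1*, *Runx1* and *Ikzf1*, and the group of 2 genes shared with neurons held *Mef2a* and *Mef2c*. RNA came from the cortex of 47 male C57BL/6J mice of about 3 months of age, 1 library per mouse, with no genetic modification in either group. Of these mice, 23 were fed control chow and 24 chow with 1200 ppm PLX5622 for 10 days. PLX5622 is an inhibitor of CSF1R, the receptor whose signal microglia need to survive. Each diet was sampled at Zeitgeber time (ZT, hours after lights on) 2, 6, 10, 14, 18 and 22, with 4 mice per group and 3 in the control group at ZT14.

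Microglia arise from yolk sac progenitors, and their identity rests on a small set of DNA-binding proteins. PU.1, the product of *Spi1*, opens and binds the enhancers of most myeloid genes, often together with IRF8. RUNX1 and Ikaros act in blood cell development, IRF5 acts in inflammatory signalling, and SALL1 keeps microglia distinct from other macrophages. MEF2A and MEF2C also bind microglial enhancers, but neurons use them for activity-dependent transcription and make large amounts of both.

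The libraries held 16597987 to 27626161 counts, and the median was 18314954 for control and 21476967.5 for treated mice. The drug's target, *Csf1r*, averaged 51.6 TPM in control and 4.19 TPM in PLX5622 mice. All 16 microglial marker genes passed the test for a lower level in PLX5622 mice (limma, adjusted p under 0.05), with *P2ry12*, a purine receptor of microglial processes, at 42.1 and 3.32 TPM and *C1qa*, a complement subunit, at 105 and 8.43 TPM. Summed TPM of those markers had a median of 690 (560 to 850) in control and 70.3 (23.5 to 134) in PLX5622 mice. The sum of neuronal markers, which do not single out cortex, had a median of 4228 TPM in control and 4438 TPM in PLX5622 mice. Choroid plexus markers had a median sum of 501 TPM (70.0 to 1194) in control and 810 TPM (149 to 1276) in PLX5622 mice. How much tissue from outside the cortex the samples held was not tested. Border macrophage markers fell as well, from a median sum of 11.8 TPM to 1.39 TPM, and both of the border macrophage markers that could be tested passed. Among lymphocyte and granulocyte markers 0 of 3 tested passed in limma, 0 at an unadjusted p under 0.05, with 0 of 3 in edgeR, and their summed level ranged from 5.84 to 35.5 TPM in control and from 8.84 to 42.7 TPM in PLX5622 mice. Over all genes, 127 of 14580 passed in limma for a higher level. Among markers of other cells, 4 did. They were *Gfap* (1 of 8 astrocyte markers), *Cldn11* (1 of 8 oligodendrocyte markers), and *Ttr* and *Kl* (2 of 7 choroid plexus markers). In edgeR 334 of all 16293 genes were higher. Of these lists 1 of 8, 2 of 8 and 0 of 8 were higher there, so the choroid plexus calls did not hold on the counts. These 4 genes are named after their values were seen. The part that border macrophages had in the results below was not tested. In such bulk tissue, fewer cells of a type and less RNA per cell cannot be told apart.

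The promoters of 7 of the 8 genes were matched in RefSeq (GRCm38.p6), as 14 windows of 250 bases before to 50 bases after a start site. *Spi1* had no entry. Stretches of 250 bases before the start are printed for 3 windows, because they set a shared gene whose level held against a restricted gene whose level fell. Capitals mark the letters GAGGAAG, a core of the sequence that PU.1 binds, which was searched on both strands. The windows are *Mef2a* at chr7:67372859-67373108 (minus strand), the second start of *Mef2c* at chr13:83523406-83523655 (plus strand) and the first start of *Irf8* at chr8:120736108-120736357 (plus strand).
Mef2a: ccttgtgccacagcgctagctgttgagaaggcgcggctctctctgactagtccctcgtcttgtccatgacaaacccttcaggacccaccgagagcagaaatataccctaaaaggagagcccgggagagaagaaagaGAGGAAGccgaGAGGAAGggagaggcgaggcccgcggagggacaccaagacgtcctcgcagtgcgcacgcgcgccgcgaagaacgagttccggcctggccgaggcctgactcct
Mef2c: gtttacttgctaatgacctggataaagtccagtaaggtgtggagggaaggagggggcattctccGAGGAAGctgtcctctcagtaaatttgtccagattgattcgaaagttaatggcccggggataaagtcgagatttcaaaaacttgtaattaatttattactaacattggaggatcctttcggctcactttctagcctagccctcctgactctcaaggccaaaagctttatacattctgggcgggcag
Irf8: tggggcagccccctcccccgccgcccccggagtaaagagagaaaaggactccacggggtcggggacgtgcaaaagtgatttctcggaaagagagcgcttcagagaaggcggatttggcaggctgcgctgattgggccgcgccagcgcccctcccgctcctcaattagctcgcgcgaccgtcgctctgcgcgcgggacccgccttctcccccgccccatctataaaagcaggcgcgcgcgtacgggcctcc

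These letters occurred at 114 and 103 bases before the start of *Mef2a* and at 186 bases before the second start of *Mef2c*. They were in 2 of the 4 windows of the shared genes and in 0 of the 10 windows of the restricted genes, against 13.63% of 32851 mouse promoter windows of the same length. A RUNX core (TGTGGT) was found in the first window of *Runx1* only, in a set where 16.76% of all windows hold it. The clock E-box CACGTG was likewise in the first window of *Runx1* and in 7.15% of all. These are letter matches in short windows and bear on no factor's binding.

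*Spi1* (chromosome 2, 91082390 to 91115756, GRCm38), the gene of PU.1, was the restricted factor with the lowest share of its control level left. It ranged from 3.33 to 9.34 TPM (median 5.61) in control mice, and from 0 to 2.05 TPM with a median of 0.473 in PLX5622 mice. Every PLX5622 library lay below every control library, as for 0.583% of all genes tested. The PLX5622 mean of 0.548 ± 0.483 TPM (SD, n = 24) was 9.91% of the control mean of 5.53 ± 1.35 TPM (n = 23). The limma difference on log2(TPM + 1) was -2.10 (standard error 0.10, adjusted p = 9.06e-23), a scale that understates the change of low genes, and edgeR gave -3.28 on the counts. The library at 0 TPM, replicate 3 at ZT10, held 0 counts, which allows up to 3 counts or a CPM (counts scaled to library size) of 0.170, and the PLX5622 libraries as a whole held a median of 11.5 *Spi1* counts. Such intervals cover counting error only.

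*Irf8* (chromosome 8, 120736358 to 120756694), the partner of PU.1, ranged from 2.77 to 6.04 TPM (median 3.73) in control mice and from 0.260 to 1.52 TPM with a median of 0.775 in PLX5622 mice. The diets did not overlap. The mean fell to 21.8% of control, with a limma difference of -1.38 (standard error 0.068, adjusted p = 2.94e-22).

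*Irf5* (chromosome 6, 29526625 to 29541871), an interferon regulatory factor of inflammatory signalling, fell to 22% of control. Its control libraries ranged from 1.94 to 4.44 TPM with a median of 3.02, and its PLX5622 libraries from 0.0702 to 2.18 TPM with a median of 0.580. One PLX5622 library, replicate 4 at ZT6 with 2.18 TPM, reached into the control range, and the other 23 lay below it. That library held only 15 *Irf5* counts, and in CPM the diets did not overlap, with at most 1.83 in PLX5622 and at least 3.02 in control mice. The limma difference was -1.29 (standard error 0.083, adjusted p = 7.72e-18).

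*Ikzf1* (chromosome 11, 11685003 to 11772926), the gene of the zinc finger protein Ikaros, fell to 18.8% of control. Control libraries ranged from 1.19 to 3.13 TPM with a median of 1.81, and PLX5622 libraries from 0.0455 to 0.962 TPM with a median of 0.299. The diets again did not overlap, and the limma difference was -1.07 (standard error 0.066, adjusted p = 1.58e-18).

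*Runx1* (chromosome 16, 92601466 to 92826149), a factor of blood stem cell emergence, was the least abundant member. With a mean of 0.261 TPM over all libraries it did not reach the minimum mean of 1 TPM that a gene needed to be tested, so 7 of the 8 members entered the main test. It ranged from 0.149 to 1.45 TPM (median 0.346) in control mice and from 0 to 0.232 TPM with a median of 0.0890 in PLX5622 mice. A PLX5622 level below every control library was seen in 19 of the 24 libraries (23 in CPM), and the mean was 23.8% of control. The median *Runx1* count was 28 in control and 6 in PLX5622 libraries. Without the filter limma gave -0.35 (standard error 0.050, adjusted p = 8.65e-07) and edgeR gave -2.13 on the counts (adjusted p = 1.19e-12).

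*Sall1* (chromosome 8, 89027235 to 89044162, minus strand), the zinc finger factor of microglial identity, kept most of its level in the tissue. It ranged from 6.09 to 9.81 TPM (median 7.47) in control mice and from 3.15 to 7.53 TPM with a median of 4.69 in PLX5622 mice. Of the 24 PLX5622 libraries, 20 lay below every control library and 4 lay within the control range. The mean fell from 7.57 ± 1.01 TPM (n = 23) to 5.0 ± 1.21 TPM (n = 24), which is 66.1% of control, with a limma difference of -0.53 (standard error 0.067, adjusted p = 3.89e-08). In the counts its fall was smaller than that of every other restricted factor, a comparison chosen after the values were seen. On log2 CPM the difference between the diets was smaller by 2.74 than for *Spi1* (95% interval 2.26 to 3.21), by 1.58 than for *Irf8* (1.24 to 1.92) and by 1.34 than for *Runx1* (0.96 to 1.73). The summed microglial markers, beside this, had a PLX5622 median of 70.3 TPM against 690 TPM in control mice. Their fall was larger than that of *Sall1*, so restricted is only a class label for this gene here. Which cells held the *Sall1* RNA left was not tested.

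*Mef2a* (chromosome 7, 67231163 to 67372858, minus strand) and *Mef2c* (chromosome 13, 83504034 to 83667080), MADS-box factors that neurons also use, did not pass the test. *Mef2a* ranged from 26.7 to 43.2 TPM (median 34.1) in control mice and from 26.8 to 49.2 TPM with a median of 35.0 in PLX5622 mice. *Mef2c* ranged from 84.1 to 218 TPM (median 119) in control mice and from 84.5 to 208 TPM with a median of 137 in PLX5622 mice. In both genes the diets overlapped over nearly the whole range. The limma difference was 0.08 (95% interval -0.04 to 0.21, adjusted p = 0.506) for *Mef2a* and 0.09 (-0.11 to 0.30, adjusted p = 0.686) for *Mef2c*. The median over all genes tested was 0.03 on the same scale.

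**Figure D1:**
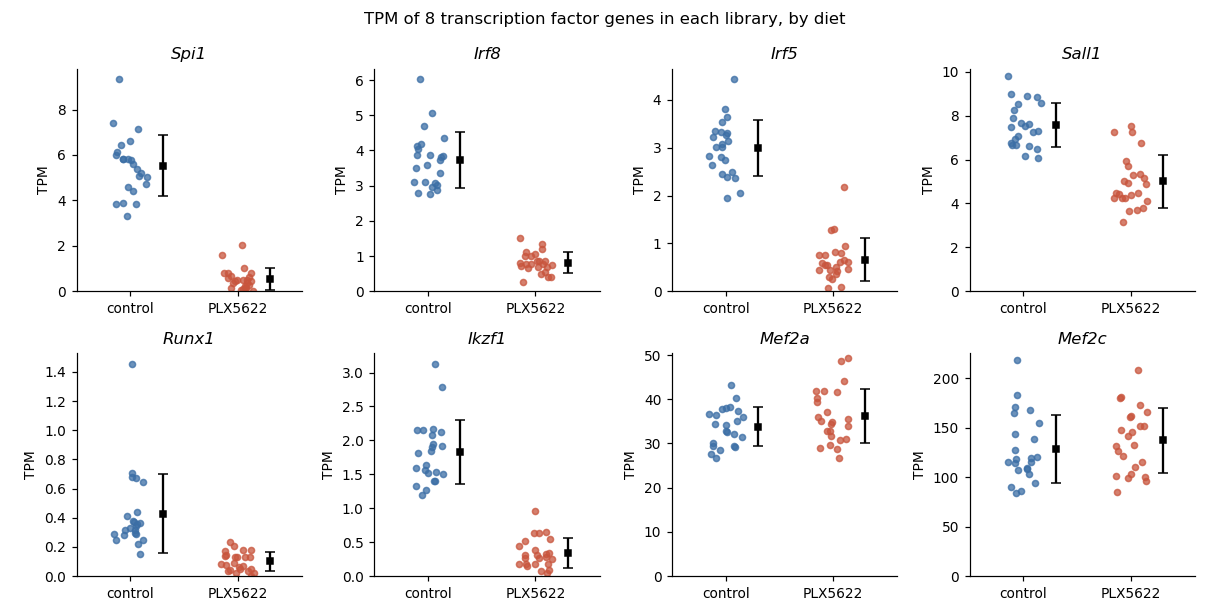
TPM of each member in each library (circles) by diet, on a linear axis from 0, with black squares and bars for the mean and SD of 23 control and 24 PLX5622 libraries. In the Spi1 panel the highest PLX5622 library is at 2.05 TPM and the lowest control library at 3.33 TPM, while the Sall1 libraries overlap and the Mef2a and Mef2c libraries cover nearly the same range.

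In control cortex the order by mean TPM was *Mef2c* (129), *Mef2a* (33.8), *Sall1* (7.57), *Spi1* (5.53), *Irf8* (3.73), *Irf5* (2.99), *Ikzf1* (1.82) and *Runx1* (0.427). The control libraries of *Mef2c* did not overlap those of *Mef2a*, nor did those of *Mef2a* overlap those of *Sall1*. From *Sall1* downward each gene's control range overlapped that of the next. In PLX5622 cortex *Spi1* stood below *Irf8* and *Irf5* by its mean, and the lowest *Sall1* library (3.15 TPM) lay above the highest library of each other restricted factor. The variation between PLX5622 libraries, as the coefficient of variation, was 88.0% for *Spi1*, 36.6% for *Irf8* and 24.1% for *Sall1*, against 24.4%, 21.4% and 13.3% in control. For *Irf5*, *Ikzf1* and *Runx1* it was 67.9%, 64.4% and 63.5%, against 19.5%, 25.9% and 63.5%. The PLX5622 libraries held a median of 11.5 *Spi1* counts, and the highest was at 2.05 TPM. How much of this variation was counting noise was not tested.

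Over all Zeitgeber times, 5 of the 5 restricted factors tested and 0 of the 2 shared factors passed for a lower level in PLX5622 mice, and 2.58% of the 14580 genes tested did. Of the shared factors, 0 passed at an unadjusted p under 0.05. In edgeR on the counts, all 6 restricted and 0 shared factors passed, with 5.26% of all genes lower.

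**Figure D2:**
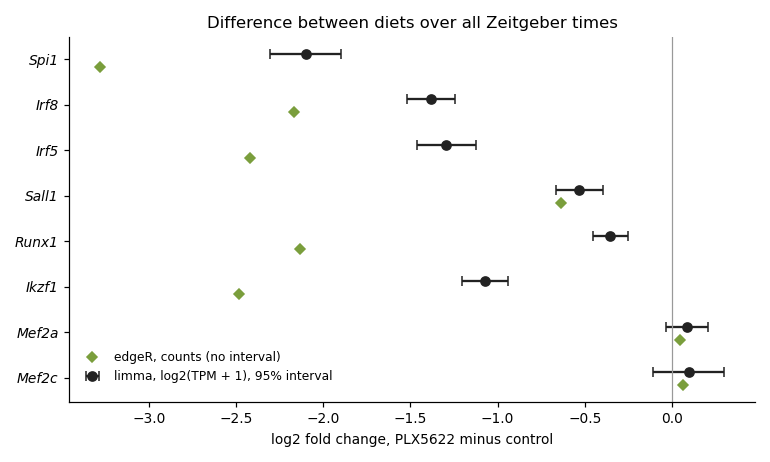
Log2 fold change of PLX5622 over control for each member, from limma on log2(TPM + 1) with its 95% interval (circles; Runx1 from the fit without a filter) and from edgeR on the counts (diamonds). The intervals of Mef2a and Mef2c span 0, Sall1 is at -0.53 in limma and -0.64 in edgeR, and Spi1 is the farthest from 0 in both.

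Restricted and shared factors were then compared within the same libraries, as the difference between their diet differences on log2(TPM + 1). All 12 pairs of a restricted with a shared factor had a 95% interval below 0. The widest gap was -2.20 between *Spi1* and *Mef2c* (-2.49 to -1.90). For *Sall1* the gap was -0.62 to *Mef2a* (-0.76 to -0.47) and -0.63 to *Mef2c* (-0.86 to -0.39). *Runx1*, whose low level compresses this scale, had the narrowest gap, -0.44 to *Mef2a* (-0.59 to -0.28). These gaps are given without a p because the classes were set with earlier results known.

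At the single Zeitgeber times, 28 of the 42 tests of a member were passed, all for a lower level and all in restricted factors. The share of all genes that passed for a lower level was 1.18% at ZT2, 0.967% at ZT6, 1.02% at ZT10, 0.885% at ZT14, 0.775% at ZT18 and 1.25% at ZT22. *Spi1*, *Irf8*, *Irf5* and *Ikzf1* passed at all 6 times. The *Spi1* mean in PLX5622 mice lay between 7.43% of control at ZT10 and 12.1% at ZT14. At ZT14 the *Spi1* values were 5.83, 4.41 and 5.07 TPM in control mice and 2.05, 0.127, 0.158 and 0.141 TPM in PLX5622 mice, so that 1 of the 4 treated mice held most of the RNA of its group.

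*Irf8* remained lowest at ZT10, at 15.4% of control, and highest at ZT18, at 34.9%. At ZT18 its control values were 3.01, 2.77, 3.84 and 2.80 TPM and its PLX5622 values 0.785, 0.850, 1.19 and 1.52 TPM. The diets stayed apart there too. *Ikzf1* also had its highest share at ZT18, 40.8% of control, with 1.85, 1.40, 1.52 and 1.19 TPM in control and 0.633, 0.319, 0.517 and 0.962 TPM in PLX5622 mice. These *Ikzf1* values did not overlap, and limma gave -0.64 with an adjusted p of 0.0233. Leaving out any one of 6 libraries at ZT18 (control replicate 1, 2 or 3, PLX5622 replicate 1, 2 or 3) raised that adjusted p to between 0.0534 and 0.182, and a pseudocount of 0.1 raised it to 0.191. *Irf5* had its highest share at ZT6, 41.0% of control, with 3.26, 3.23, 2.74 and 1.94 TPM in control and 0.939, 0.807, 0.652 and 2.18 TPM in PLX5622 mice. The highest treated mouse lay above the lowest control mouse in TPM but was the lowest of its group in CPM (0.806), where the share was 29.6% and the groups did not overlap. The adjusted p of 0.00389 rose to 0.161 with a pseudocount of 0.1.

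*Sall1* passed at ZT6, ZT10, ZT18 and ZT22 and did not pass at ZT2 or ZT14. The strongest difference was at ZT22, with 9.81, 8.90, 6.67 and 7.24 TPM in control and 5.28, 4.12, 4.25 and 4.24 TPM in PLX5622 mice, where the groups did not overlap (limma -0.73, adjusted p = 6.99e-04). At ZT2 the control values were 6.63, 8.52, 7.92 and 7.30 TPM and the PLX5622 values 4.88, 7.26, 7.26 and 4.49 TPM, with 2 treated mice inside the control range (-0.32, adjusted p = 0.424). At ZT14 the values were 7.67, 7.62 and 8.84 TPM in control and 5.95, 5.37, 7.53 and 6.77 TPM in PLX5622 mice. Here the groups did not overlap, and the difference of -0.29 had an adjusted p of 1. The share of all genes without overlap at a single time was not counted, so no weight rests on such a separation. Whether the *Sall1* difference changed with time was tested as a difference in rhythm, below, and as an interaction of diet with ZT as a factor. With ZT as a factor 0 of the 7 members tested passed, and the smallest unadjusted limma p among them was 0.0665. The call at ZT6 rested on PLX5622 replicate 4 (adjusted p = 0.0568 without it), the call at ZT10 on PLX5622 replicate 2 (0.0615), and the call at ZT18 on each of PLX5622 replicates 1, 2 and 3 and control replicates 1 and 2 (0.0518 to 0.140).

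*Runx1* without the filter passed at ZT2 (adjusted p = 0.0144) and ZT6 (0.0221) in limma, and at ZT2, ZT6, ZT10, ZT14 and ZT18 in edgeR. Its control values at ZT2 spread from 0.149 to 1.45 TPM, and the lowest of them lay within the treated range of 0.0250 to 0.181 TPM. *Mef2a* ranged from 92.2% of control at ZT6 to 117% at ZT10, and *Mef2c* from 86.0% at ZT14 to 131% at ZT22. At ZT22 the *Mef2c* values were 84.1, 107, 138 and 155 TPM in control and 152, 126, 148 and 208 TPM in PLX5622 mice, which overlapped (limma 0.40, adjusted p = 0.766).

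**Figure D3:**
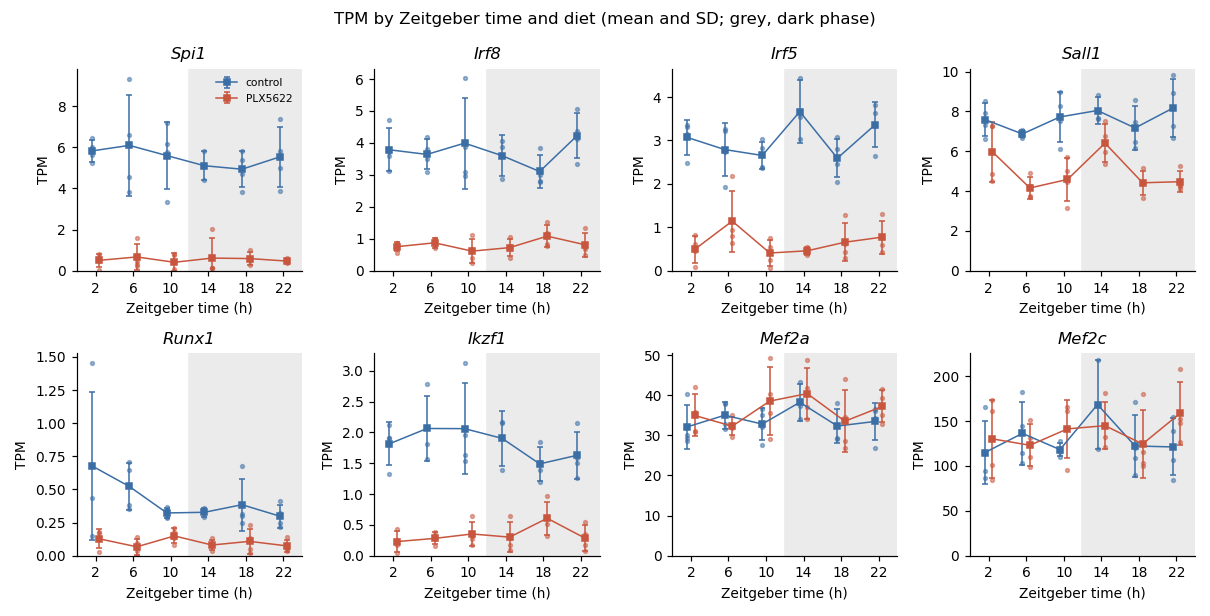
TPM of each member by Zeitgeber time in hours, with control mice in blue and PLX5622 mice in red. Small points are mice, squares and bars the mean and SD of 4 mice (3 in control at ZT14), and grey marks the dark phase. Spi1, Irf8 and Ikzf1 libraries of the 2 diets do not overlap at any time, Sall1 comes closest to control at ZT14 (79.7% of the control mean), and Mef2a and Mef2c cross.

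A 24-h rhythm was not called in any member. JTK_CYCLE called 0.0754% of all genes in control and 0.61% in PLX5622 mice, and 0 of the 7 members tested in either diet. Among these 7, the smallest p was that of *Ikzf1* in control mice (JTK_CYCLE exact p = 0.275, adjusted p = 0.901) and *Irf5* in PLX5622 mice (p = 0.340, adjusted p = 0.898), so 0 passed at an unadjusted p under 0.05. *Runx1*, tested only without the filter, had a JTK_CYCLE exact p of 0.215 in control mice and was called in neither diet. Cosine fits with limma and with edgeR also called 0 members in either diet, and the smallest unadjusted p was 0.0831 and 0.129 in control mice. Over all genes, limma called 88 of 14580 in control and 212 in PLX5622 mice, and edgeR called 590 of 16293 and 488. At these shares, as at those of JTK_CYCLE, 0 calls among so few members says little about them. The difference in rhythm between the diets was called in 0% of all genes and in 0 members. Among the members 1 had an unadjusted p under 0.05 in limma, *Ikzf1* (0.0395), and 0 had one in edgeR. *Sall1* had an unadjusted p of 0.934.

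The relation of each factor to the microglial RNA left in a mouse was measured within each diet, as the correlation of its log2(TPM + 1) with the mean log2(TPM + 1) of the 16 microglial markers, after the mean of each ZT group had been taken off. Labels were permuted within ZT groups, 100000 times and two-sided, and p-values were adjusted over the 16 relations. The share of all genes that would pass the same test was not computed. The relations below are therefore not set against a background, and none is shown to be particular to these factors. In PLX5622 mice *Spi1* rose with the markers (r = 0.77, rho = 0.84, n = 24, adjusted permutation p = 0.00232 and 8.0e-04), and r was 0.75 without the 2 libraries farthest from the median marker level. *Irf8* (r = 0.61, rho = 0.63, adjusted permutation p = 0.0201 and 0.0220) and *Ikzf1* (r = 0.57, rho = 0.53, adjusted permutation p = 0.0201 and 0.0351) also rose with them, with r of 0.59 and 0.47 without those 2 libraries. *Sall1* gave r = 0.07 and rho = -0.01 (adjusted permutation p = 0.939 and 0.980), *Irf5* r = 0.25, *Runx1* r = 0.22, *Mef2a* r = 0.18 and *Mef2c* r = 0.02. Without the replicate 1 library at ZT14 the adjusted p was 0.0621 for *Irf8* and 0.0704 for *Ikzf1*, which left *Spi1* as the only call, and without replicate 4 at ZT10 it was 0.0542 for *Ikzf1*.

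**Figure D4:**
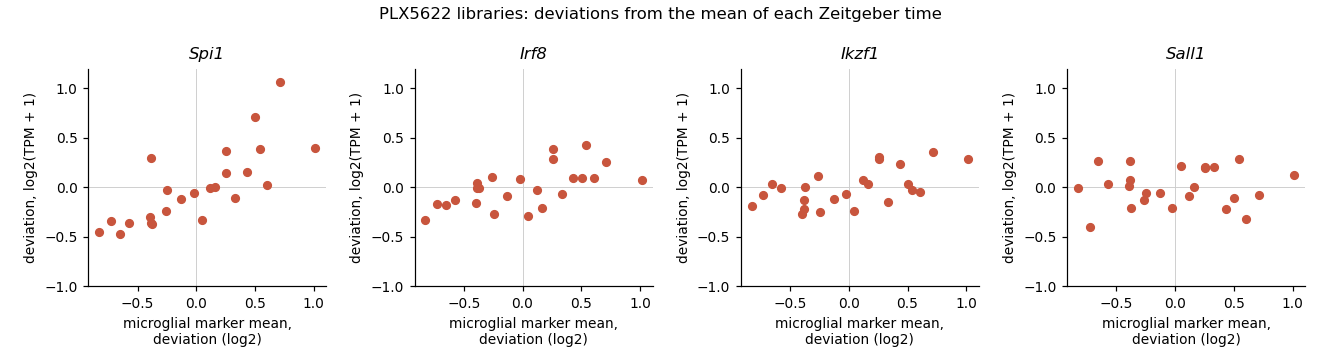
Deviation of 4 members from the mean of their Zeitgeber time (vertical axis, log2(TPM + 1)) against the deviation of the mean of 16 microglial markers (horizontal axis, log2), in the 24 PLX5622 libraries. The points rise together for Spi1 (r = 0.77), Irf8 (r = 0.61) and Ikzf1 (r = 0.57), and show no slope for Sall1 (r = 0.07).

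In control mice the 8 relations went in both directions. *Spi1* rose with the markers (r = 0.71, rho = 0.73, n = 23, adjusted permutation p = 0.00232 and 0.00512; r = 0.66 without the 2 farthest libraries), as did *Mef2a* (r = 0.65, rho = 0.65, adjusted permutation p = 0.0201 and 0.0220) and *Mef2c* (r = 0.59, adjusted permutation p = 0.0387; rho = 0.54, 0.0653). The other 5 did not pass, with r = -0.38 for *Irf5* (adjusted permutation p = 0.286), -0.21 for *Ikzf1*, -0.06 for *Runx1*, 0.02 for *Irf8* and 0.33 for *Sall1*. Without the control library ZT22 replicate 2, *Irf5* passed with r = -0.57 (adjusted permutation p = 0.0428), and on CPM its r was -0.03. The 3 called relations were lost on log2(CPM + 1) from the counts, where r was 0.61 for *Spi1* (adjusted permutation p = 0.0670), 0.23 for *Mef2a* and 0.20 for *Mef2c*. The calls also rested on single control libraries. That of *Mef2a* was lost without replicate 4 at ZT2, replicate 3 at ZT10 or replicate 2 at ZT18 (adjusted permutation p 0.0526 to 0.104). That of *Mef2c* was lost without any one of 15 libraries (replicates 1, 2 and 4 at ZT2 and at ZT6, 1 and 3 at ZT10, all 3 at ZT14 and all 4 at ZT18), with adjusted permutation p from 0.0507 to 0.159. In PLX5622 mice the same change of scale gave r of 0.89 for *Spi1*, 0.74 for *Irf8* and 0.56 for *Ikzf1*, all still past the threshold, while a pseudocount of 0.1 raised the adjusted permutation p of *Ikzf1* to 0.0516.

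The members' deviations in the 24 PLX5622 libraries were also set beside each other, as a description without a test. These values share library, depth and composition. *Mef2a* and *Mef2c* had r = 0.81, *Irf8* and *Ikzf1* r = 0.66, and *Spi1* and *Irf8* r = 0.64. *Sall1* had r = 0.55 with *Mef2a* and r = 0.08 with *Spi1*. Over all genes, the patterns most like *Spi1* were those of *P2ry13* (r = 0.80), *Fcrls* (0.80) and *Tmem119* (0.76). For *Sall1* they were *Cacng5* (0.86), *Gng4* (0.84) and *Itga6* (0.83), for *Irf8* *Lag3*, *Cytl1* and *Stc1* (0.75 to 0.77), and for *Irf5* *Fam89a*, *Smyd1* and *Nat1* (0.71 to 0.76). *Ikzf1* was followed by *Stxbp4* and *Cyb5a* (0.78 and 0.74), *Runx1* by *Src*, *Tmem241* and *Fzd9* (0.75 to 0.80), *Mef2a* by *Gorasp2*, *Trim35* and *Prkacb* (0.96 to 0.97), and *Mef2c* by *Kcnh7*, *D430041D05Rik* and *Gda* (0.97 to 0.98). For genes with few counts, such as *Runx1*, a correlation of this kind is no finding.

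Relatives of the members in their protein families mostly did not pass the diet test. Of all genes tested, 376 of 14580 were lower and 127 higher in limma, and 857 and 334 of 16293 in edgeR. At such shares, a count of 0 in lists this short says little about the relatives. In the IRF family 0 of 5 tested genes passed in limma and 0 of 6 in edgeR, with 0 at an unadjusted p under 0.05 in limma. In the RUNX family and its partners it was 0 of 5 and 0 of 5, with 2 unadjusted, in the SALL family 0 of 2 and 0 of 2, with 1 unadjusted, and in the IKZF family 0 of 2 and 0 of 4, with 0 unadjusted. *Mef2d* and the class IIa histone deacetylases that repress MEF2 proteins were also not called, at 0 of 5 in both tools, with 0 unadjusted. Of 14 ETS factors tested, 2 were lower in limma. These were *Fli1* at -0.28 (1.89 and 1.37 TPM) and *Etv4* at -0.28 (13.4 and 10.8 TPM), of which *Etv4* did not pass in edgeR (adjusted p = 0.136). In edgeR 3 of 15 were lower, *Fli1* together with *Elf4* (-1.35, adjusted p = 5.31e-13) and *Elk3* (-0.31, adjusted p = 5.83e-05), the last pair named after their values were seen.

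Of 19 other factors known from microglia and macrophages, 8 were lower and 0 higher in limma, where 2.58% of all genes were lower. In edgeR 10 of 23 were lower, against 5.26% of all genes. The limma list median was -0.10 against 0.03 over all genes. *Lyl1*, a basic helix-loop-helix factor of blood cells, had the smallest p, at 3.22 TPM in control and 0.843 TPM in PLX5622 mice (-1.20, adjusted p = 4.24e-18). *Hhex*, a homeobox factor, went from 2.26 to 0.951 TPM (-0.75).

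Known targets of the factors were taken as separate lists. For each list, the share of all genes lower was 2.58% in limma and 5.26% in edgeR. Of 12 tested targets of PU.1 and IRF8, 11 were lower in limma, with a median of -2.52, and 13 of 14 in edgeR. *Itgam*, an integrin subunit, went from 8.09 to 0.555 TPM (-2.56), *Laptm5*, a lysosomal membrane protein, from 27.1 to 2.73 TPM (-3.01), and *Cx3cr1*, the fractalkine receptor, from 21.8 to 1.87 TPM (-3.11). The exception was *Csf2ra*, a cytokine receptor subunit, at 11.1 and 10.3 TPM (adjusted p = 0.868), named after its value was seen. All 8 genes of the SALL1-dependent identity list were lower, with a median of -2.66. They included *P2ry13*, a purine receptor, from 7.75 to 0.468 TPM, and *Tmem119*, a microglial surface protein, from 18.5 to 1.94 TPM. Both had a lower share of its control mean left than *Sall1* had. Of the 8 activity-dependent targets of MEF2 proteins 0 passed in limma, 2 had an unadjusted p under 0.05, and 1 passed in edgeR for a higher level. That gene was *Klf6*, named after its value was seen, at 15.0 and 16.7 TPM. Over all genes, 334 of 16293 were higher in edgeR. Many genes of the first pair of lists are microglial markers themselves, so their fall is not independent of the markers.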

How the data were processed

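Groups were taken from the sample labels. The authors computed TPM, their deposited length-corrected level per gene, with Salmon on GRCm38.p6. The other table the authors deposited holds whole-number counts per gene without normalization, although it is named for FPKM. STAR, featureCounts, edgeR and limma are named in the submitters' processing notes, without versions, and strand handling is not given in the sources used here. Gene symbols and positions came from GENCODE M21.

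The members, classes and lists were chosen with earlier results of these data known. The 14580 genes whose average over the libraries reached 1 TPM were tested on log2(TPM + 1) with limma 3.58.1 in R 4.3.3, with diet and both 24-h time terms (cosine, sine). Fits with 12 group means gave the difference at each ZT, and the interaction of diet with both time terms gave the difference in rhythm. P-values were adjusted by Benjamini-Hochberg over all genes, with a threshold of 0.05. JTK_CYCLE was written for this purpose with a period of 24 h and 6 phases. Signed differences are PLX5622 minus control. Intervals of a difference are 95% intervals. Promoter sequences are RefSeq's. The members, Csf1r, P2ry12, C1qa, at most 3 genes per list with the smallest p among those past the threshold, and the 3 genes most like each member in PLX5622 libraries were named, and any other gene is marked as chosen after its values were seen. Single values of some genes named by this rule are not reported here.

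The tests were repeated without a filter, with an average of 5 TPM or more, with a pseudocount of 0.1, with median-of-ratios scaling, ZT as a factor, eBayes with a trend, the replicate number as a block, edgeR 4.0.16 and DESeq2 1.42.0 on the counts, and each library left out in turn. The comparison of *Sall1* with the other restricted factors was added after the data were seen. The steps were tested on simulated data with known changes. Libraries of a group differed by more than sampling noise (chi-square per degree of freedom of at least 4.30 over 69 pairs). The labels give 2 sequencing platforms but not which library ran on which, so batch could not be examined. Figures were drawn with matplotlib 3.10.9 in Python 3.11.15.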

Additional observations from a re-analysis of the deposited data

Results flagged for a closer look

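In 88 groups of 4 libraries, formed by 8 members, 2 diets and 6 Zeitgeber times, 4 held 1 library far from the other 3, where about 4.4 would be flagged by chance. *Spi1* in the PLX5622 library ZT14 replicate 1 was at 2.05 TPM (37 counts), against 0.127 to 0.158 TPM (2 to 4 counts) in the others. *Sall1* in the PLX5622 library ZT22 replicate 1 was at 5.28 TPM (465 counts), against 4.12 to 4.25 TPM. *Runx1* in the control library ZT18 replicate 1 was at 0.677 TPM (35 counts), against 0.248 to 0.318 TPM (14 to 23 counts). *Mef2a* in the control library ZT2 replicate 4 was at 40.2 TPM (2478 counts), against 28.6 to 30.2 TPM. The control group at ZT14 has 3 libraries and was not examined in this way.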

How the results depend on the processing

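The diet calls of the 7 members tested over all times kept their direction and side of the threshold under every alternative that could test them. With a mean of at least 5 TPM only *Sall1*, *Mef2a* and *Mef2c* could be tested, which left 1 member lower over all times and 4 of 18 tests at single times. Over all genes, 503 differed between diets, with 298 at a mean of at least 5 TPM, 1191 in edgeR and 1365 in DESeq2 (429 to 634 with each library left out). Tests of a gene at a time numbered 930, with 1434 without a filter, 347 at 5 TPM, 1716 in edgeR and 1989 in DESeq2 (871 to 944). Rhythmic genes numbered 11 in control mice, with 0 without a filter, 88 in limma and 590 in edgeR (0 to 18), and 89 in PLX5622 mice, with 43, 212 and 488 (38 to 114). Member tests at single times numbered 28 (26 to 28). Relations to the markers numbered 3 in each diet, with 0 on CPM in control mice (1 to 4 with a control library left out; 1 to 3 in PLX5622 mice).

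Some values that had not passed a test changed sign. At ZT18 *Mef2a* was -0.00257 with median-of-ratios scaling, -0.0151 in edgeR and -0.0170 in DESeq2, and *Mef2c* -0.0128 with median-of-ratios scaling. The r values were 0.0320 for *Irf5* in control mice without removal of ZT means, 0.313 for *Runx1* and 0.258 for *Ikzf1* on CPM, and 0.0254 for *Ikzf1*, -0.207 for *Sall1* and -0.00482 for *Mef2c* (both PLX5622) without removal of ZT means, and -0.126 for *Mef2c* on CPM. With each library left out, *Mef2c* ranged from -0.250 to 0.0211 at ZT6, from -0.418 to 0.0195 at ZT14 and from -0.17 to 0.20 at ZT18, and *Mef2a* from -0.0204 to 0.161 at ZT14 and from -0.10 to 0.13 at ZT18. The r ranged from -0.18 to 0.12 for *Irf8* and from -0.219 to 0.0170 for *Runx1* in control mice, and from -0.13 to 0.21 for *Sall1* and from -0.14 to 0.15 for *Mef2c* in PLX5622 mice. The cause of these changes was not tested.

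The labels tie the replicate numbers to nothing shared, and for that reason the numbers were not taken as pairs. Deviations of same-numbered libraries of different groups had a mean correlation of 0.05 (-0.25 to 0.30 over 253 pairs, 76 of them over 0.1). For other numbers the mean was lower, at -0.02, and 24 of 47 libraries were closest to their own number. How many would be so by chance was not computed, so these values do not show that the numbers are unrelated. Whether same-numbered libraries shared a step of handling was not tested. With the replicate number as a block, 578 genes differed between diets and the calls of the members did not change. At these depths *Runx1* and *Spi1* in PLX5622 mice rest on few counts (medians of 6 and 11.5), and a change between times in them may not be detectable.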
